A study of Caenorhabditis elegans with 6 samples.

Results

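The worm miRNAs with the late numbers, 784 and up, were followed across 2 strains and 3 exposures of a spaceflight experiment with the nematode Caenorhabditis elegans. They were taken by name from the spot tables of the arrays: a probe for a worm miRNA numbered 784 or higher, with any arm suffix, leaving out 4 numbers (miR-791, miR-793, miR-794 and miR-795) and the strands marked with a star. This gave 35 of the 157 worm probes, and 1 star strand (miR-1019*) was left out. The rule uses names and no measured value, although it was set with earlier results of these data known. miR-800 and miR-1831 are named in the older of the 2 spot tables only.

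Each of the 6 one-colour arrays held the RNA of 1 strain after 1 exposure, so no group had a replicate. One strain was N2, the wild type, and the other a mutant labelled ced-1. The genotype label gives ced-1(n1995) I, an allele of the gene for a receptor through which dying cells are engulfed. The labels disagree on its strain name (LS292 in titles, MT4930 in the strain field), so it is called the mutant labelled ced-1 here. Elsewhere LS292 denotes worms mutant for dys-1, which encodes dystrophin. Which gene was mutated in these worms cannot be settled from the labels, and this applies to every mutant value. All worms were dauer larvae, an arrested and stress-resistant stage, kept at 23 °C for 16.5 days with about 100000 worms loaded in a container, and collected 7 h after landing or after the end of the ground run. In static flight the dose was 1.92 mGy and gravity peaks reached at most 0.01 g. In 1 g flight, on a centrifuge, the dose was 2.27 mGy, and the ground worms sat in a static slot of the same kind of box, started 2 days later. From each sample, 1 µg of total RNA was labelled with the dye Hy3. The arrays hold no protein-coding markers, so the stage and the genotype could not be checked in these data.

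MicroRNAs are short RNAs cut from hairpin precursors, first by Drosha with its partner Pasha in the nucleus and then by Dicer. Loaded on an Argonaute protein, they pair through their seed with messenger RNAs and lower their output. In worms the first miRNAs were found as developmental timing mutants and by cloning. Most late-numbered ones came from deep sequencing of small RNAs, and many of those are rare or limited to a few cells. Some, the mirtrons, are spliced introns that fold as hairpins and bypass Drosha. miR-786 is the best studied of the late-numbered ones. It acts in the intestine to time the defecation rhythm, and its gene lies next to mir-240.

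Levels are given as background-subtracted spot intensity (foreground minus local background), as the median of the 4 spots of a probe, in arbitrary units. An array's limit was the 95th percentile of its 476 control spots (spike_control), which were taken as the level read without a worm miRNA. Whether they also read added spike RNA was not tested. In the order static flight, 1 g flight and ground, this limit was 14, 20 and 13.25 on the N2 arrays and 97, 75.25 and 150 on the mutant arrays. The control spots' median was -1, 5 and -8 on the N2 arrays and 53, 38 and 64 on the mutant arrays, while 96 empty spots had medians from -1 to 6.5 on all 6. The control spots were thus higher on each mutant array. The empty spots were too, but by far less, at -1, 0 and -1 on the N2 arrays and 2, 3 and 6.5 on the mutant arrays. Unscaled levels are therefore set beside the control spots of their own array. The raw spots of the strains come in separate tables, 1 per strain, so a difference between strains and one between tables cannot be told apart. Arrays are called by the sample names of the raw tables. A further value table of the series lists the same numbers under other samples, so the strain and exposure of every array rest on those names.

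Few late-numbered miRNAs exceeded the control spots, and the number changed with the array. On the N2 arrays 9, 10 and 9 of the 35 exceeded the limit in static flight, 1 g flight and ground, against 17.2%, 19.7% and 19.1% of all worm probes. These counts are 25.7%, 28.6% and 25.7% of the late-numbered miRNAs and compare with 14.8%, 17.2% and 17.2% of the 122 other worm probes. On the mutant arrays 6, 15 and 2 exceeded the limit, against 33.8%, 58.6% and 22.9% of all worm probes. These are 17.1%, 42.9% and 5.71% of the late-numbered miRNAs, beside 38.5%, 63.1% and 27.9% of the others. The late-numbered share lay above that of the other probes on all 3 N2 arrays and below it on all 3 mutant arrays. Probes of an array share its RNA and its limit, so these shares are descriptions with no test.

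**Figure D1:**
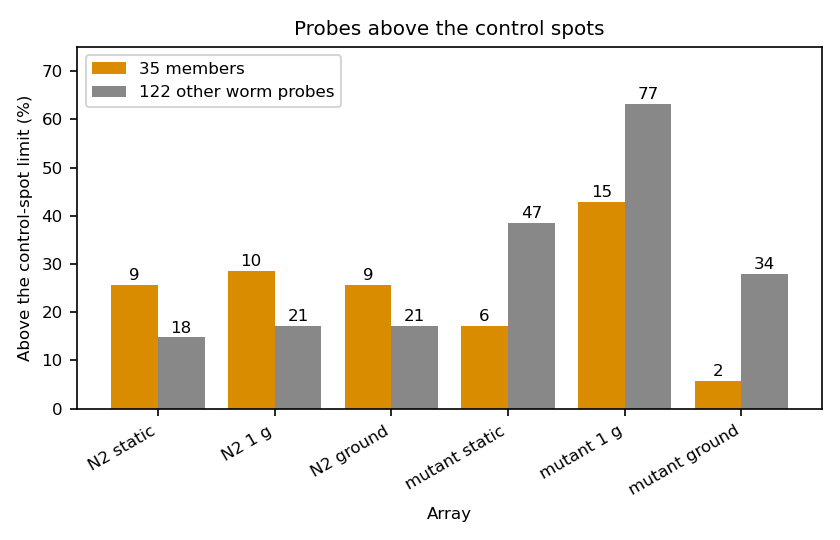
Share of probes whose median spot intensity exceeded the control-spot limit of the same array (percent, y axis) on the 6 arrays (x axis), for the 35 late-numbered miRNAs (orange) and the 122 other worm probes (grey), with the number of probes above each bar. The orange bar is the higher one on the 3 N2 arrays, with 9, 10 and 9 miRNAs, and the lower one on the 3 mutant arrays, with 6, 15 and 2.

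The counts turned on how the spots were read. With the lowest of the 4 spots required above the limit, 4, 7 and 4 late-numbered miRNAs passed on the N2 arrays and 1, 7 and 1 on the mutant arrays. The spots spread widely: 20, 9 and 8 of the 140 spots of these miRNAs on the N2 arrays lay below -200, against 0, 0 and 4 on the mutant arrays.

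Taken over all arrays, 20 of the 35 exceeded the limit on at least 1 array, 9 did so on at least 2, and 15 on none. Of the 122 other worm probes, 42 exceeded it on none, 19 on exactly 1, and 22, 22, 5, 3 and 9 on 2, 3, 4, 5 and 6 arrays. The late-numbered counts in that order were 15, 11, 0, 2, 3, 2 and 2. The share above the limit on at least 2 arrays was thus lower for the late-numbered miRNAs than for the others. The 9 were miR-788-5p, miR-1824-5p, miR-799, miR-1822-3p, miR-796, miR-1823, miR-1832, miR-787-3p and miR-786-3p, and all of these but miR-786-3p exceeded it on all 3 N2 arrays.

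Only miR-788-5p and miR-1824-5p exceeded the limit on all 6 arrays. miR-788-5p read 42, 72.5 and 23 on the N2 static, 1 g and ground arrays and 263, 188 and 322.5 on the mutant arrays in that order. miR-1824-5p read 44.5, 52.5 and 18.5 in N2 and 144.5, 128 and 196.5 in the mutant. For both, every mutant value lay above every N2 value, as for 91.1% of all worm probes. In N2 the ground array was the lowest for both, and in the mutant it was the highest. Divided by the limit of its array, however, the ground value was the lowest for both in the mutant too. There miR-788-5p stood at 2.71, 2.50 and 2.15 times the limit and miR-1824-5p at 1.49, 1.70 and 1.31 times. The ground value of miR-788-5p in the mutant rests on spots far apart, at 97, 147, 498 and 1370, of which 2 exceeded the limit. The mutant ground spots of miR-1824-5p lay close together, from 162 to 228, and all 4 exceeded it.

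miR-1823 was the brightest late-numbered miRNA on each N2 array and is the one probe of all 157 whose 3 N2 values all lay above its 3 mutant values before scaling, a share of 0.637% of the worm probes. It read 118, 180.5 and 234.5 in N2 and 71.5, 99.5 and 60 in the mutant. In N2 only 3 or 4 other worm probes of the same array were brighter, since it ranked 5, 5 and 4 of 157. In the mutant it ranked 85, 75 and 112 and exceeded the limit in 1 g flight only. One N2 static spot (-484) and one N2 ground spot (-262) lay far below the other 3, which ran from 111 to 136 and from 196 to 515.

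miR-787-3p, miR-1832 and miR-796 were likewise detected throughout N2 but not throughout the mutant. miR-787-3p read 49.5, 81.5 and 49.5 in N2 and 74.5, 52 and 58.5 in the mutant, where it was never above the limit. All 4 of its spots exceeded the limit on each N2 array and 0 of 4 on each mutant array. miR-1832 read 17.5, 48 and 41.5 in N2 and 72.5, 80.5 and 58 in the mutant. On the N2 static array only 2 of its 4 spots exceeded the limit, and its median was 1.25 times the limit. miR-796 read 23, 32 and 60.5 in N2 and 80.5, 78.5 and 57 in the mutant. Both exceeded the mutant limit only in 1 g flight. The N2 and mutant values overlap for miR-787-3p and miR-796 and do not for miR-1832, which is higher on the mutant arrays as most probes are.

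miR-799, miR-1822-3p and miR-786-3p were detected in both strains but not on all arrays. miR-799 read 39.5, 72 and 34 in N2 and 116.5, 112.5 and 74.5 in the mutant. miR-1822-3p read 54.5, 45 and 21.5 in N2 and 131, 148 and 67.5 in the mutant. In both strains the ground array was the lowest of the 3 for these 2 miRNAs, and in the mutant their ground values lay under the limit. miR-786-3p, the intestinal rhythm miRNA, read 46, 45.5 and 12 in N2 and 81.5, 134.5 and 79 in the mutant, and exceeded the limit in both N2 flight arrays and the mutant 1 g array. miR-240-3p, from the neighbouring gene, read 36.5, 40 and 9 in N2 and 86.5, 107.5 and 160.5 in the mutant. In N2 both were low on the ground array, under the limit, whereas in the mutant the unscaled ground value was the highest for miR-240-3p and the lowest for miR-786-3p. Divided by the mutant limits of 97, 75.25 and 150, both were highest in 1 g flight, and miR-786-3p was still lowest on the ground.

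**Figure D2:**
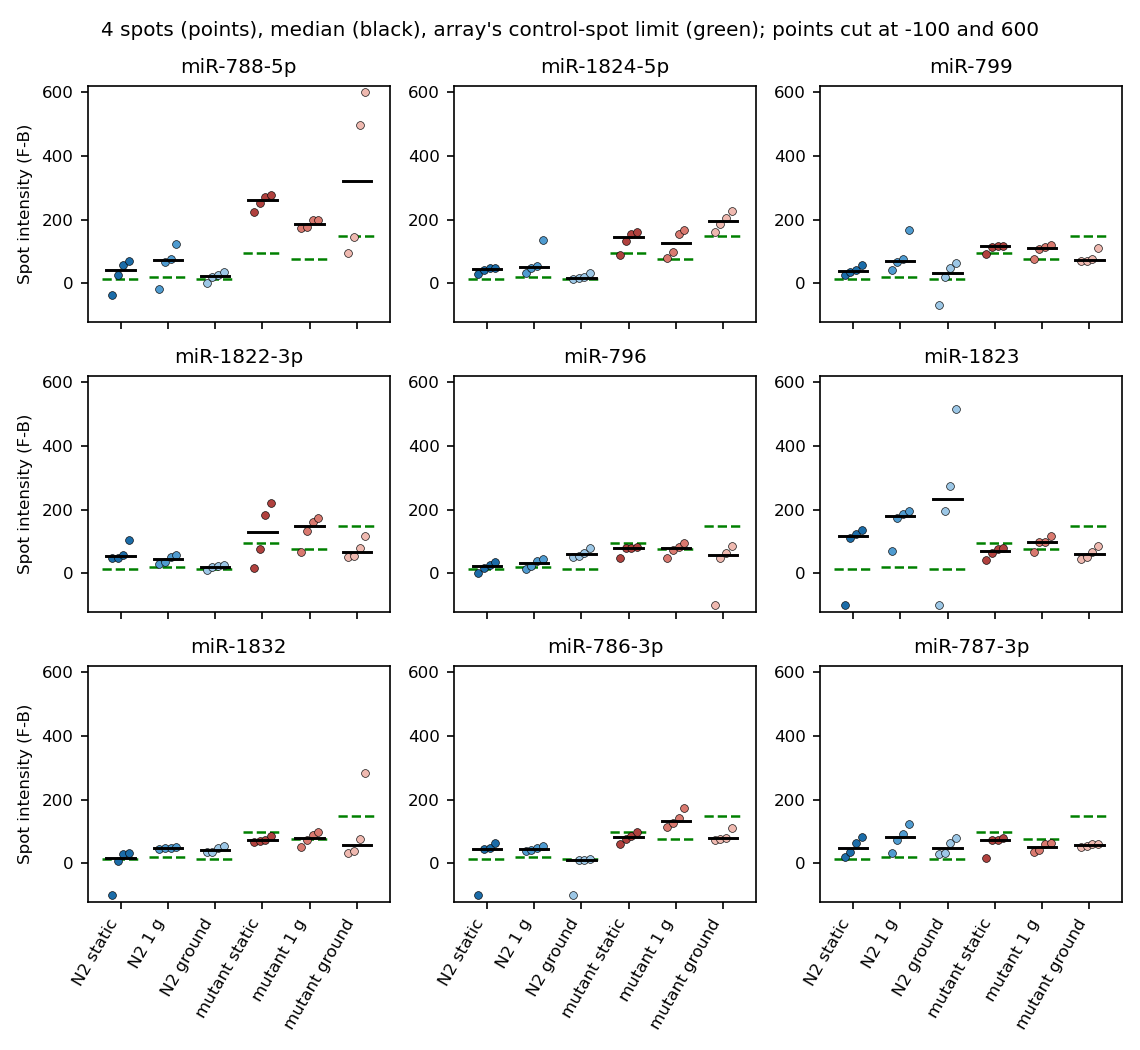
Intensity of the 4 spots (points, foreground minus background, arbitrary units) on the 6 arrays for the 9 miRNAs above the limit on at least 2 arrays. Black bars are medians and green dashes the array's control-spot limit, points beyond -100 and 600 are drawn at those values, and the medians of miR-1823 and miR-787-3p exceed the limit on all 3 N2 arrays but, on the mutant arrays, only that of miR-1823 in 1 g flight does.

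Within an array, ranks do not depend on scaling between arrays. The 9 miRNAs ranked between 4 and 31 of the 157 worm probes on the N2 arrays and between 19 and 122 on the mutant arrays. miR-788-5p ranked 16, 13 and 26 in N2 and 19, 49 and 21 in the mutant, and miR-1824-5p ranked 15, 18 and 29 in N2 and 33, 65 and 27 in the mutant. These 2 overlapped between strains, and for the other 7 every mutant rank was further down than every N2 rank. Over all 35 this held for 11, against 22.3% of all worm probes, and the opposite, every mutant rank further up, held for 0, against 16.6%. miR-787-3p moved from 12, 10 and 18 to 82, 115 and 118. All 9 were partly chosen by their N2 values, so their high N2 ranks, and in part their fall in the mutant, follow from the choice and are a description.

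**Figure D3:**
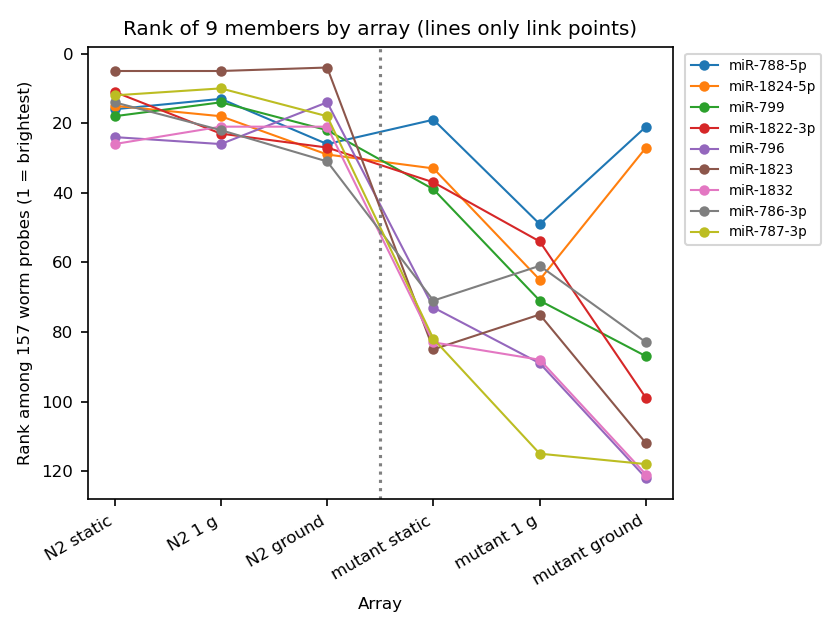
Rank of 9 late-numbered miRNAs among the 157 worm probes of an array (y axis, 1 is the brightest) on the 6 arrays (x axis), with lines that only link points of a miRNA and a dotted line between strains. All 9 lie at rank 31 or better on the N2 arrays, and on the mutant arrays miR-788-5p and miR-1824-5p stay nearest to the top on the static and ground arrays.

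A further 11 miRNAs exceeded the limit on exactly 1 array, as did 19 of the 122 other worm probes. For 7 of the 11 it was the mutant 1 g array: miR-785, miR-789, miR-1019-3p, miR-1820-5p, miR-1821, miR-1831 and miR-1833. miR-1831 was the brightest late-numbered miRNA there, at 347.5 and 4.62 times the limit, with its 4 spots from 295 to 418. On the other mutant arrays it read 97 in static flight, equal to the limit, and 132 on the ground, and in N2 it read -85.5, 13 and -7. Its gene is listed as an snRNA rather than a miRNA in the RefSeq gene table. miR-789, miR-1821 and miR-1833 read 145, 143.5 and 100 on the mutant 1 g array. miR-785, miR-1019-3p and miR-1820-5p read 76.5, 76 and 96.5, where the first 2 passed the limit of 75.25 by little. The remaining 4 were miR-800 (109) and miR-1830-5p (100) in mutant static flight, miR-1828 (29) in N2 1 g flight and miR-1018 (16) on the N2 ground array.

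On no array above the limit were miR-784-5p, miR-790-5p, miR-792-3p, miR-797-5p, miR-798, miR-1020-3p, miR-1021, miR-1022-5p, miR-1817, miR-1818, miR-1819-3p, miR-1829a-3p, miR-1829b, miR-1829c and miR-1834-3p. Their values ran from -102.5 to 10.5 in N2 and from 11 to 96.5 in the mutant, so no level can be given for them beyond the limit of each array. The highest of these values, miR-1819-3p at 96.5 in mutant static flight, lay just under the limit of 97.

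**Figure D4:**
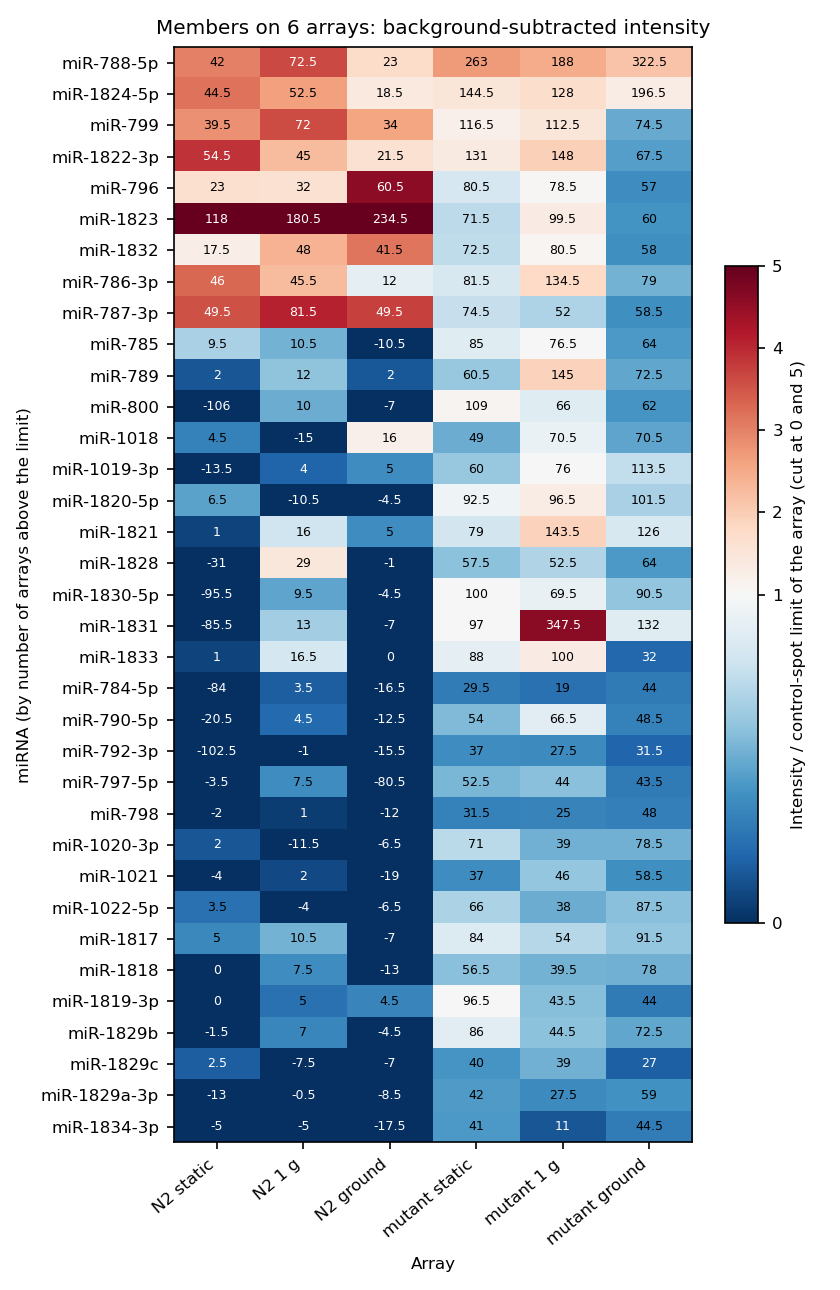
Median spot intensity (number in each cell, foreground minus background, arbitrary units) of the 35 late-numbered miRNAs (rows) on the 6 arrays (columns), coloured by its ratio to the control-spot limit of the array with white at the limit and the colour scale ending at 0 and 5. The upper 9 rows are red in most N2 columns, with miR-1823 reaching 234.5, and miR-1831 at 347.5 is the one deep red cell in the mutant 1 g column.

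Of the 4 mirtron genes listed for the worm here, mir-62, mir-1018, mir-1019 and mir-1020, none gave a product detected on more than 1 array. miR-62 exceeded the limit on no array, miR-1020-3p on none, and miR-1018, miR-1019-5p and miR-1019-3p on 1 each. miR-1019-3p read 60, 76 and 113.5 in the mutant against a mutant ground limit of 150, and -13.5, 4 and 5 in N2.

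Of the 35, 31 matched a gene symbol in RefSeq's gene table (assembly WBcel235), 30 of them listed as miRNA genes. miR-789 and miR-1832 each have 2 genes, so their probes cannot tell the copies apart. Of the 31, 11 lie inside the span of a protein-coding gene and 20 outside. Among the 9 miRNAs above the limit on at least 2 arrays, 3 lie inside one (miR-1824 in Y87G2A.18, miR-1822 in ZK84.2 and miR-1832 in rsp-8 and Y116A8C.27) and 6 outside. miR-1828 lies in pash-1, which encodes Drosha's partner, and miR-1019 in dyf-5, a kinase gene of the ciliated neurons. Another miRNA gene lies within 1000 bases of 7 of them, among them mir-240 near mir-786 and the pair mir-792 and mir-1821, both of which are in this set.

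Between strains, miR-1823 was the one late-numbered miRNA that passed the test, and it was lower in the mutant. Before scaling, 32 of the 35 were higher on every mutant array than on any N2 array, as were 91.1% of all worm probes, and the control spots were higher there too. After the control-spot median of each array was subtracted, 8 late-numbered miRNAs were higher on every mutant array, against 38.9% of all worm probes. They were miR-1831, miR-1824-5p, miR-788-5p, miR-1829b, miR-1820-5p, miR-1821, miR-1830-5p and miR-1817. Of these, miR-1829b and miR-1817 exceeded the limit on no array, and miR-1831, miR-1820-5p, miR-1821 and miR-1830-5p on 1 each. At the same time 4 were higher on every N2 array, against 5.1% of all worm probes: miR-1823, miR-787-3p, miR-798 and miR-1834-3p. The last 2 exceeded the limit on no array.

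For the test, arrays were scaled to a common median over the 8 worm probes at 50 or more on all arrays, values under 50 were set to a floor of 50, and limma was fitted to log2 values with strain and exposure as additive terms. miR-1823 is one of the 8. The factors were 1.835, 1.992 and 1.587 for the N2 arrays and 1.078, 0.238 and 0.671 for the mutant arrays. Scaled, 28, 25 and 30 of the 35 fell to the floor in N2 and 7, 34 and 23 in the mutant. The mutant 1 g array thus left 1 late-numbered miRNA above the floor, although 15 exceeded the control spots there. Of the 35, 19 were tested, 9 of them at the floor on all 3 N2 arrays and so able to differ in 1 direction only.

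Scaled, miR-1823 stood at 217, 360 and 372 in N2 and at 77.1, 23.7 and 40.2 in the mutant, the last 2 under the floor. It was lower in the mutant in all 3 exposures, by a limma estimate of -2.41 on the log2 scale (SE 0.43, Benjamini-Hochberg adjusted p = 0.00129). Its direction held under all 13 alternatives, from -4.63 to -1.18, and the adjusted p passed 0.05 in 8. The call was lost with no scaling (-1.18, adjusted p = 0.0682) and with the mean of the spots (-1.72, adjusted p = 0.164). It was also lost with the exposure pair of 1 g flight (-2.19, adjusted p = 0.105) or ground (-2.17, adjusted p = 0.104) left out, and with no filter on dim probes (adjusted p = 0.132). Over all 96 worm probes tested, 26 passed (27.1%), 24 higher and 2 lower in the mutant. Of the late-numbered ones, 0 of 19 were called higher and 1 lower. With 34 of the 35 at the floor on the mutant 1 g array, these could not read higher than N2 in that exposure.

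The other 18 estimates ran from -0.84 for miR-787-3p (SE 0.43, limma adjusted p = 0.181) to 0.87 for miR-1831 (SE 0.39, limma adjusted p = 0.131). The median strain estimate was 0.23 over the late-numbered miRNAs, 0.47 over all probes tested and 0.69 over the other probes. Both the median and the direction of the calls moved with the scaling. With 75th percentile scaling all 9 late-numbered miRNAs tested were called lower in the mutant, beside 18 lower and 10 higher of 48 probes, and the median over all probes was -1.04. With no scaling 3 of 26 were called higher, beside 34 of 129 probes, and that median was 0.95. Exposures serve as the replicates of a strain in this fit, which leaves 2 residual degrees of freedom. limma draws each probe's spread toward that of the other probes tested, values at the floor included. A p-value thus rests on the spread between these arrays, shared over probes, and on no spread between replicate samples.

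Between exposures, no late-numbered miRNA passed with the strains fitted together. limma called 0 of 96 worm probes (0%) for static flight against ground, 0% for 1 g flight against ground and 0% for static against 1 g flight. At an unadjusted p under 0.05 there were 3, 3 and 2 worm probes, of which 1, 0 and 0 were late-numbered. That one was miR-1822-3p, higher in static flight than on the ground by 1.25 on the log2 scale (SE 0.52, limma unadjusted p = 0.0343, adjusted p = 0.757). The 3 comparisons share arrays. The median estimate over the 19 tested was 0.27, -0.05 and 0.26, beside 0.16, -0.11 and 0.22 over all 96. For 9 of the 19, all 3 N2 arrays were at the floor, so their estimates rest on the mutant arrays only. After scaling by 0.238, miR-1831 was the one late-numbered miRNA above the floor on the mutant 1 g array. For the others, mutant 1 g flight could not read above ground or above static flight. The floor thus limits the sign of both medians that involve 1 g flight, and no direction is drawn from them.

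A difference within a strain compares single arrays and carries no test. A probe was called at a scaled difference of 2-fold or more with at least 1 of the arrays above its limit, and the technical SE beside a difference covers the scatter of the spots only. In N2, 1 of 10 late-numbered miRNAs compared was higher in static flight than on the ground, 4 of 11 were higher in 1 g flight than on the ground and 0 of 10 differed between static and 1 g flight. None was lower. With 75th percentile scaling the split was 3 higher and 4 lower, 0 higher and 4 lower, and 2 higher and 0 lower, so the calls depend on the scaling. None of the 4 then lower in 1 g flight than on the ground was among the 4 called higher. All worm probes gave 23.5%, 35.1% and 17.1% in the same order, in both directions together. In the mutant 3 of 6 were higher in static flight than on the ground, 2 of 15 were lower in 1 g flight than on the ground and 6 of 17 were higher in static than in 1 g flight. With no scaling the split was 0 and 0, 4 higher and 0 lower, and 0 higher and 2 lower. Those calls with no scaling fell on miRNAs other than the ones called in the same comparison after scaling. All worm probes gave 52.5%, 25% and 20.2%.

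miR-1822-3p is the one late-numbered miRNA that differed at least 2-fold the same way in both strains, higher in static flight than on the ground. In N2 the log2 difference was 1.00 (technical SE 0.26), at least 2.00-fold with the ground value at the floor, and the static and ground spots did not overlap. In the mutant it was 1.50 (technical SE 0.55), where the spots overlapped and the ground value lay under the limit. Against that limit, the mutant static value was at least 1.40-fold higher. Under 9 alternatives the N2 difference ran from 0.0003 to 1.63 and the mutant one from 0 to 1.43, and each was at least 2-fold in 3.

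In N2, the 4 that were higher in 1 g flight than on the ground were miR-788-5p, miR-799, miR-1824-5p and miR-787-3p. miR-788-5p differed by 1.53 on the log2 scale (technical SE 0.49) and miR-1824-5p by 1.06 (technical SE 0.44), each a lower bound with the ground value at the floor. miR-799 differed by 1.41 (technical SE 0.48) and miR-787-3p by 1.05 (technical SE 0.53). The spots of the arrays overlapped for all of these but miR-1824-5p. With 75th percentile scaling miR-799 came to -0.30 and miR-787-3p to -0.66, so their direction turned.

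In the mutant, miR-788-5p and miR-1824-5p went the other way. They were lower in 1 g flight than on the ground, by -2.11 (technical SE 0.87) and -1.40 (technical SE 0.11) on the log2 scale, with the 1 g values at the floor. The scaled spots of the arrays did not overlap, but the unscaled spots did for both. The unscaled medians were higher in 1 g flight than on the ground in N2 and lower in the mutant. As multiples of the limit of each array, both miRNAs were higher in 1 g flight than on the ground in both strains. With no scaling the mutant differences came to -0.78 and -0.62, and with 75th percentile scaling to -0.71 and 0, so the 2-fold calls rest on the scaling. Whether the strains differ in this was not tested, since each side is 1 array against 1.

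The 2-fold calls between the mutant flight arrays rest on the scaling as well. Against 1 g flight, static flight was higher for miR-788-5p by 2.50, miR-1824-5p by 1.64, miR-1822-3p by 1.50, miR-799 by 1.33, miR-800 by 1.23 and miR-1830-5p by 1.11. The unscaled static and 1 g values of miR-799 were 116.5 and 112.5, those of miR-1824-5p 144.5 and 128, and miR-1822-3p was lower in static flight (131 and 148). Unscaled, miR-788-5p (263 and 188), miR-800 (109 and 66) and miR-1830-5p (100 and 69.5) were also higher in static flight. The static and 1 g spots of miR-788-5p, 223 to 279 and 175 to 200, did not overlap. With no scaling 0 were called higher. The factors applied to these 2 arrays were 1.078 and 0.238. Against the ground, miR-799 (1.33) and miR-800 (1.23) were higher in static flight, but their ground values lay under the ground limit. Against that limit the static values were at least 1.25-fold and 1.17-fold higher.

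Spearman's rho was 0.505 to 0.696 between N2 arrays, 0.546 to 0.695 between mutant arrays and 0.232 to 0.679 across strains, over 35 probes that share an array and its spot noise. Over the 9 miRNAs above the limit on at least 2 arrays it was 0.767 to 0.833 between mutant arrays and -0.03 to 0.383 between N2 arrays. Across strains it was -0.717, -0.733 and -0.733 between the N2 ground array and the mutant static, 1 g and ground arrays, and between -0.2 and 0.233 for the other pairs. For the same N2 ground pairs it was 0.528, 0.569 and 0.462 over the other 26 late-numbered miRNAs. Over all 35 it was 0.563, 0.649 and 0.337. The 9 were chosen by their levels on these same arrays, so the order among them is a description.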

How the data were processed

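Spot intensity was read from the deposited tables, whose headers name 2 measures per array, the foreground and the foreground less the local background. The authors' expression table gives intensity per probe and a normalized value, a ratio of that intensity to 1 factor per array, tested on the table. How the authors chose that factor, and the scanner and its software, are not given in the sources used here. Each array held 10080 spots for 2314 probe identifiers, and the median of a probe's spots equalled the authors' value per probe on 2314 of 2314 (tolerance 0.01). A total of 18 other value columns were not used here, among them a value table of the series whose columns hold what the expression table lists under other samples.

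Worm probes were scaled, floored at 50 and put on the log2 scale, and the 96 with a scaled value of 50 or more on at least 2 arrays were fitted with limma 3.58.1 in R 4.3.3 (additive strain and exposure, 2 residual degrees of freedom, Benjamini-Hochberg at 0.05). Within a strain, a difference was called at 2-fold or more. limma takes values at the floor as measured. The submitters state that only technical repeats were made, for want of worms. The fit was tested on simulated data. The number of arrays limits the precision.

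The miRNAs named with a value on every array were those above the control-spot limit on at least 2 arrays, those past an adjusted p of 0.05, and those that differed at least 2-fold the same way in both strains; the others are given by ranges. Exceptions are miR-1831, which was chosen after its values were seen, and miR-1019-3p, from the mirtron list. The members and the lists (mirtrons, the pair of miR-240 and miR-786) were chosen with earlier results of these data known. Gene names and neighbours come from RefSeq's table for WBcel235, with no coordinates, since the array names no build. No sequence is shown.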

Additional observations from a re-analysis of the deposited data

Results flagged for a closer look

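2 late-numbered miRNAs moved in opposite directions in the strains between 1 g flight and ground, which is what marked them for a closer look. miR-788-5p differed by 1.531 on the log2 scale in N2 (unscaled 72.5 against 23) and by -2.113 in the mutant labelled ced-1 (188 against 322.5). Under 9 alternatives the N2 difference ran from 0.01 to 2.04 and the mutant one from -3.31 to -0.71. miR-1824-5p differed by 1.065 in N2 (52.5 against 18.5) and by -1.398 in the mutant (128 against 196.5). Under the same alternatives these ran from -0.03 to 1.58 and from -1.88 to 0. The difference between the strains was not tested. Divided by the limit of each array, the directions were not opposite. In the mutant miR-788-5p then stood at 2.50 times the limit in 1 g flight and 2.15 on the ground, and miR-1824-5p at 1.70 and 1.31. In N2 these were 3.63 and 1.74, and 2.63 and 1.40. miR-56-3p, which is outside the set, also differed at least 2-fold in opposite directions, by 1.41 in N2 and -1.52 in the mutant.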

How the results depend on the processing

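With 1 array for each strain and exposure, every result rests on single samples. Of 124 counts recomputed, 63 stayed within 1.5 times of the count reported, whatever their direction. Counts of late-numbered miRNAs above the control spots came to 21, 21 and 25 (N2 static, 1 g, ground) and 26, 29 and 17 (mutant) with the control-spot median as the limit. With the highest control spot as the limit they came to 2 on the N2 ground array and 2, 7 and 0 on the mutant arrays. With the lowest of the 4 spots they came to 4 (N2 static), 4 (N2 ground), 1, 7 and 1 (mutant). With the mean of the spots, the mutant ground count was 6. For the strain effect, 1 call became 0 with the mean of the spots or no filter on dim probes, 9 lower of 9 tested with 75th percentile scaling, 7 lower of 22 with quantile normalization, 3 higher of 26 with no scaling and 17 lower of 19 with normexp. Over all probes these 4 gave 10 higher and 18 lower of 48, 17 and 17 of 105, 34 and 0 of 129, and 8 and 53 of 96. Leaving out an exposure pair gave 0 to 1. The median strain estimate over all probes moved from 0.47 to -1.04, -0.04, 0.95 and -1.26 under the last 4. The exposure effects stayed at 0 calls under the alternatives run, also with no strain term.

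Within N2, static flight against ground (1 call) gave 4 with the mean of the spots (1 higher, 3 lower), 7 with 75th percentile scaling (3 higher, 4 lower), 5 with quantile normalization (4 higher, 1 lower), 2 with scaling without miR-1823 (both lower) and 0 with no scaling, a floor of 100, normexp, the authors' normalized values or the control-spot median subtracted. For 1 g flight against ground (4 calls) there were 0 with no scaling, a floor of 100, normexp or the authors' values and 2 with the control-spot median subtracted. With 75th percentile scaling 4 were called, all lower, and none of them was among the 4 called higher before. Quantile normalization gave 3 higher and 2 lower, and the mean of the spots 2 higher and 1 lower. For static against 1 g flight (0 calls) there were 3 lower with the mean of the spots, 2 higher with 75th percentile scaling, 2 with quantile normalization (1 each way) and 6 lower with scaling without miR-1823. Within the mutant, static flight against ground (3 calls, higher) gave 1, lower, with the mean of the spots. It gave 0 under 75th percentile scaling, no scaling, a floor of 100, normexp or the control-spot median subtracted. For 1 g flight against ground (2 calls, lower) there were 6 with the mean of the spots, 0 with 75th percentile scaling, 4 with no scaling (all higher, so the direction turned), 1 with a floor of 100, 12 with normexp and 1 with the control-spot median subtracted. For static against 1 g flight (6 calls, higher) there were 2 with the mean of the spots, 0 with 75th percentile scaling and 3 with quantile normalization. No scaling gave 2, both lower, and neither was among the 6 called higher. There was 1 with a floor of 100, 16 with normexp and 2 with the control-spot median subtracted.

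Single differences turned in 6 cases. In N2, for 1 g flight against ground, these were miR-787-3p (-0.66) and miR-799 (-0.30) with 75th percentile scaling, and miR-1824-5p (-0.033) and miR-799 (-0.0026) with normexp. In the mutant, miR-800 for static flight against ground came to -0.058 under the mean of the spots. Without scaling, miR-1822-3p for static against 1 g flight came to -0.18. The cause was not tested. Subtracting the control-spot median and scaling without miR-1823 were chosen after seeing the data. The filter on dim probes does not enter the within-strain counts, so it has no alternative there. The strain fit compares the strains within each exposure through its exposure term.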
